A study of Mus musculus with 22 samples.

Results

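Epithelial-mesenchymal transition is the switch by which epithelial cells give up cell to cell adhesion and take on the shape and motility of mesenchymal cells. Its core was followed here through 10 genes: the zinc finger factors Snai1 and Snai2, the basic helix-loop-helix factors Twist1 and Twist2, the zinc finger homeobox factors Zeb1 and Zeb2, the cadherins Cdh1 and Cdh2, the filament protein gene Vim and the epithelial adhesion gene Epcam. The genes were fixed by symbol and matched by Ensembl gene ID, and all 10 were found among the 56748 gene IDs listed for each library, and all 10 passed the filter on low counts.

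RNA-seq had been done on 22 mouse primary tumours started in the oral buccal mucosa by 4-hydroxytamoxifen and labelled squamous carcinoma. Every tumour, controls included, carried Trp53fl/fl and, for an inducible mutant kinase, Rosa26LSL-PIK3CA(H1047R)/LSL-PIK3CA(H1047R). Recombination came from Krt5CreER-T2/+, a Cre recombinase under the Krt5 promoter, which is active in basal keratinocytes. The other cells of a tumour do not use that promoter and would keep an intact Keap1. In 10 tumours Keap1fl/fl was added, which removes the inhibitor of the stress factor NRF2. The tobacco carcinogen benzo[a]pyrene (BAP) was or was not given at initiation. With Keap1 wildtype there were 6 untreated tumours and 6 with BAP, and with Keap1 deleted 5 untreated and 5 with BAP. Ages and doses are not given in the labels. The labels do not say whether the tumours of a group came from separate animals, so p-values measure the spread between these samples, which may be technical.

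As background, SNAI and ZEB proteins bind a short DNA motif, the E-box CACCTG, and repress epithelial genes, of which Cdh1 (E-cadherin, the main adhesion molecule of keratinocytes) is the best known. TWIST proteins act in the same programme and are also made by normal connective tissue. A shift from E-cadherin to N-cadherin (Cdh2) together with a gain of vimentin is the usual sign of the transition in carcinoma. Fibroblasts, macrophages and endothelial cells make vimentin and ZEB factors as well, and the basal layer of squamous epithelium makes SNAI2.

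Total counts ran from 29235010 to 39862777 per library. Values are CPM, counts relative to the TMM-scaled library size, and calls are Benjamini-Hochberg adjusted p under 0.05 in edgeR's quasi-likelihood test over 19202 genes. Keap1 itself was at 45.8 to 78.9 CPM in Keap1-wildtype untreated and 52.3 to 64.6 in Keap1-wildtype BAP tumours, against 22.2 to 36.4 and 9.45 to 65.6 in the corresponding Keap1-deleted groups. Its difference passed in BAP tumours (log2 fold change -0.93 ± 0.32, SE, edgeR adjusted p = 0.0253) and not in untreated ones (-0.98 ± 0.32, edgeR adjusted p = 0.137). The library labelled Keap1-deleted BAP 2 had the 65.6, which lies in the Keap1-wildtype untreated range and just above that of Keap1-wildtype BAP. Calls among the 10 genes that include it are also given without it, while ratios, levels per length and correlations include it throughout. The NRF2 target Nqo1 rose with Keap1 deletion by 2.67 ± 0.56 (log2, SE) in untreated and by 1.54 ± 0.54 in BAP tumours (edgeR adjusted p = 0.0457 and 0.0294), although Keap1-deleted BAP 3, at 19.4 CPM, lay below every Keap1-wildtype BAP library (30.6 to 85.8). Keap1-wildtype untreated 6 stood apart from the rest of its group in most of the 10 genes. Basal keratinocyte markers, the defining genes of the labelled cell type, were detected in all groups, but their summed level was 348 to 2216 CPM in Keap1-deleted BAP tumours against 32960 to 76860 in Keap1-wildtype BAP tumours. In 8 libraries the sample title ends in R, a suffix with no stated meaning.

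The E-box was looked for in promoter windows from 250 bases before to 50 after the annotated start (RefSeq, GRCm38.p6), for 9 windows of 6 of the genes. The letters searched were CACCTG and, as its other strand, CAGGTG; these did not overlap in any window shown. Windows of Epcam and Snai1 held it, and those of Twist1, Twist2, Vim and Zeb2 did not, while 20.21% of all 32851 windows held it at least once and 2.88% at least 2 times. The sequences of both are shown because they carry the motif that the SNAI and ZEB proteins read, with the motif in capitals. The Epcam window lies at chr17:87635729-87636028 on the plus strand, with motifs starting at positions -187 and -19 from the start site. The Snai1 window lies at chr2:167537945-167538244 on the plus strand, with the motif at -126. A match is a description of the letters and not a measured binding site.
Epcam: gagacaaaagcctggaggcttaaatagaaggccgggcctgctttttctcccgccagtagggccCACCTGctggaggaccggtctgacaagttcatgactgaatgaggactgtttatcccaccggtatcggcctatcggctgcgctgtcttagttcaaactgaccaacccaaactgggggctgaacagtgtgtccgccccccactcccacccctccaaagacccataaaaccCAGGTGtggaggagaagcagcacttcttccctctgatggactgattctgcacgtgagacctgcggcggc
Snai1: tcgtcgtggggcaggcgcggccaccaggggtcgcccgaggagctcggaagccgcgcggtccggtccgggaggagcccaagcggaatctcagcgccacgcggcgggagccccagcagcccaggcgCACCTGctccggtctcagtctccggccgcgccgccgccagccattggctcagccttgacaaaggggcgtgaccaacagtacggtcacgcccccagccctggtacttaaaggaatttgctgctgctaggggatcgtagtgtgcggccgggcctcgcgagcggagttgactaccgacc

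Keap1 deletion in BAP-initiated tumours was the comparison with the most calls among these genes. Of the 10 genes, 9 were called, against 40.3% of all genes tested: Snai1, Twist1, Zeb1, Zeb2, Cdh2 and Vim rose and Snai2, Cdh1 and Epcam fell. In that comparison 20.3% of all genes rose and 20.0% fell, or 3900 against 3846 genes, and with library totals in place of TMM 6051 against 2193. All 6 that rose were higher in every Keap1-deleted than in every Keap1-wildtype BAP library, and Snai2 and Cdh1 were lower in every one, which 13.8% and 13.7% of all genes also were. Twist2 was not called. The genes called here were also called in each of the 11 fits that left out 1 library, the one labelled Keap1-deleted BAP 2 included.

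**Figure D1:**
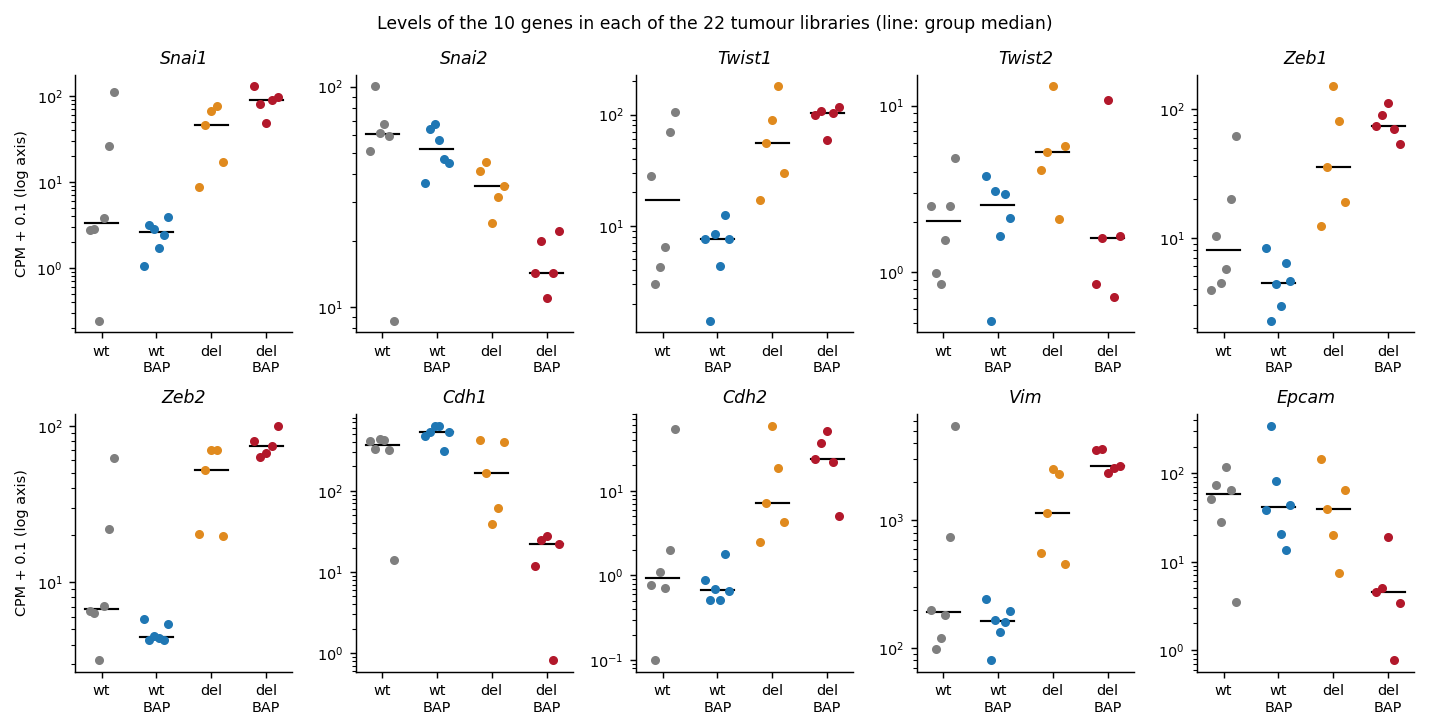
CPM of each gene in each library (log axis, 0.1 CPM added so that a 0 can be drawn), with wt for Keap1 wildtype and del for Keap1 deleted, points for libraries and lines for group medians. Cdh1 in Keap1-deleted BAP tumours (0.724 to 27.6 CPM) lies below all Keap1-wildtype BAP tumours (310.3 to 637), Vim lies above them, and Keap1-wildtype untreated 6 is the rightmost high or low grey point of most panels.

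Snai1 (ENSMUSG00000042821, chr2:167538195-167542814), whose protein starts the transition in many carcinomas, was low in Keap1-wildtype BAP tumours, at 0.971 CPM in the lowest, 2.53 at the median and 3.81 in the highest library. In Keap1-deleted BAP replicates 1 to 5 it was at 129, 79.4, 48.2, 89.2 and 97.8 CPM. No library of one group reached the other. The log2 fold change was 5.19 ± 1.07 (SE, edgeR adjusted p = 0.00115). Untreated tumours were mixed: Keap1-wildtype ones ran from 0.146 CPM through a median of 3.24 to 110.4, and Keap1-deleted replicates 1 to 5 had 8.53, 46.0, 66.0, 76.1 and 17.0. All Keap1-deleted untreated tumours were above the Keap1-wildtype median, but replicates 5 and 6 of the wildtype group lay within or above their range.

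Its paralog Snai2 (ENSMUSG00000022676, chr16:14705852-14709385), a factor of normal basal keratinocytes as well as of the transition, moved the other way. Keap1-wildtype BAP libraries held 36.3 CPM at the lowest, 52.1 at the median and 67.8 at the highest. Keap1-deleted BAP replicates 1 to 5 held 14.2, 19.9, 10.9, 14.2 and 21.9 CPM, all below every wildtype library. Snai2 fell by 1.70 on the log2 scale (SE 0.38, edgeR adjusted p = 0.00167). The lowest Snai2 of all 22 libraries, 8.58 CPM, was in Keap1-wildtype untreated 6, which at 110.4 CPM also had the highest Snai1 of its group. The rest of that group held 51.1 to 100.2 CPM, and Keap1-deleted untreated tumours lay between, at 41.3, 45.2, 23.9, 31.4 and 35.3.

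Twist1 (ENSMUSG00000035799, chr12:33957671-33959829), a regulator of mesoderm that tumours reuse, was at 1.31, 7.54 and 12.5 CPM (lowest, median, highest) in Keap1-wildtype BAP libraries. In the Keap1-deleted BAP replicates it was at 98.0, 107.9, 58.9, 103.4 and 117.7 CPM. The groups did not overlap, and the log2 fold change was 3.81 ± 0.83 (SE, edgeR adjusted p = 0.00157). The highest single value, 179 CPM, was in Keap1-deleted untreated 4. Untreated wildtype tumours ranged from 2.89 to 105.6 CPM with a median of 17.1.

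Twist2 (ENSMUSG00000007805, chr1:91801461-91848028), the close relative of Twist1 made in dermis, was low everywhere and did not follow it. The Keap1-deleted BAP replicates held 0.754, 1.52, 10.7, 0.617 and 1.56 CPM, against 0.414 to 3.69 in Keap1-wildtype BAP tumours. Replicate 3 alone stood above the wildtype range and the other replicates lay within it. The difference of 0.43 ± 0.70 (log2, SE) was not called (edgeR adjusted p = 0.655), and without replicate 3 it was -1.01. Keap1-deleted untreated 3 held the highest value of all, 12.95 CPM. How reads shared by Twist1 and Twist2 were assigned is not given in the sources used here. Twist2 also overlaps Gm29100 and Gm29101 (134 and 123 counts over all libraries against 2619). How reads of those parts were counted is not given either.

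Zeb1 (ENSMUSG00000024238, chromosome 18), a direct repressor of Cdh1, was at 2.17, 4.38 and 8.29 CPM (lowest, median, highest) in Keap1-wildtype BAP libraries. It was at 74.1, 90.3, 111.7, 69.9 and 53.4 CPM in Keap1-deleted BAP replicates 1 to 5, with no overlap (log2 fold change 4.08 ± 0.73, SE, edgeR adjusted p = 0.000516). Zeb2 (ENSMUSG00000026872, chr2:44983632-45117395) is its sister repressor. Zeb2 was even tighter in the wildtype BAP group, at 4.17 to 5.70 CPM with a median of 4.36, and was at 80.1, 62.6, 66.4, 74.2 and 100.2 in the deleted one. Again the groups were apart, and Zeb2 had the smallest p of the 10 genes (log2 fold change 4.03 ± 0.61, SE, edgeR adjusted p = 0.000314). The replicates did not rank alike: replicate 3 had the most Zeb1 and replicate 5 the least, while replicate 5 had the most Zeb2. Both genes overlap other transcripts, Zeb1 with Gm10125 (1363 counts over all libraries against 31594) and Zeb2 with the antisense Zeb2os (778 against 27651). Whether counting used the strand is not given, so reads of the overlapping parts cannot be told apart.

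The cadherins moved in opposite directions. Cdh1 (ENSMUSG00000000303, chr8:106603351-106670246) was at 310.3, 531 and 637 CPM (lowest, median, highest) in Keap1-wildtype BAP tumours. In Keap1-deleted BAP replicates 1 to 5 it was at 11.7, 24.9, 27.6, 0.724 and 22.02 CPM. Replicate 4, the lowest, had 27 counts. All were below every wildtype library, and Cdh1 fell by 4.90 on the log2 scale (SE 0.87, edgeR adjusted p = 0.000494). In a bulk tumour, fewer epithelial cells and less Cdh1 RNA per cell cannot be told apart. Cdh2 (ENSMUSG00000024304, chromosome 18), the cadherin of nerve, muscle and mesenchyme, was at 0.407, 0.573 and 1.68 CPM in Keap1-wildtype BAP tumours. The Keap1-deleted BAP replicates held 23.4, 36.3, 51.3, 21.9 and 4.92 CPM, above all of these but spread over a wide range (log2 fold change 5.22 ± 1.36, SE, edgeR adjusted p = 0.00516).

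Vim (ENSMUSG00000026728, chr2:13573927-13582826), the intermediate filament of mesenchymal cells, was the most abundant of the 10 genes in the Keap1-deleted BAP group, at 3542, 3593, 2357, 2581 and 2679 CPM. Wildtype BAP tumours held 80.6 CPM at the lowest, 163 at the median and 244 at the highest, so that the groups were far apart (log2 fold change 4.18 ± 0.89, SE, edgeR adjusted p = 0.00138). The highest Vim of all libraries, 5523 CPM, was in Keap1-wildtype untreated 6, where the rest of the group held 98.6 to 742.

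Epcam (ENSMUSG00000045394, chr17:87635979-87651129), a surface adhesion protein of simple and proliferating epithelia, fell with Cdh1 but less cleanly. Keap1-wildtype BAP tumours held 13.3, 41.5 and 348.6 CPM (lowest, median, highest), and Keap1-deleted BAP replicates 4.50, 4.88, 19.1, 0.671 and 3.30. Replicate 3 lay above the lowest wildtype library, and the groups overlapped there. The fall was 3.81 on the log2 scale (SE 1.04, edgeR adjusted p = 0.00675). Without Keap1-wildtype BAP 2, the library at 348.6 CPM, the log2 fold change was -2.62.

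**Figure D2:**
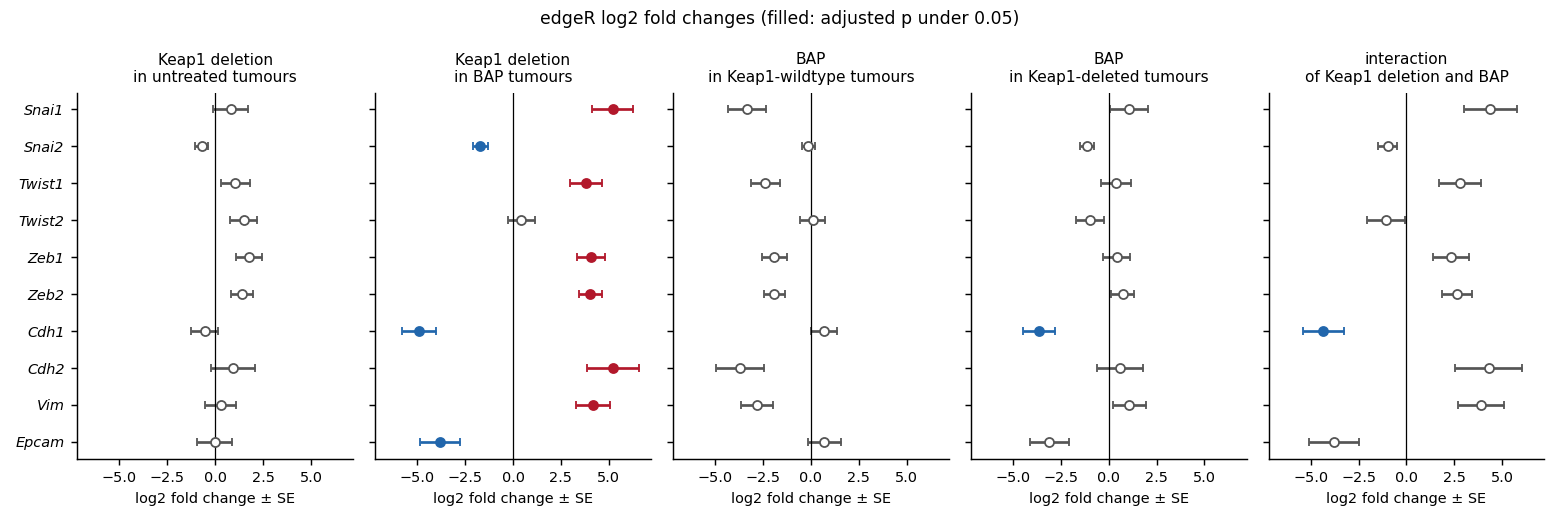
Log2 fold change with its SE for each gene in the 5 comparisons, with filled points for an adjusted p under 0.05. Called genes are 9 in Keap1 deletion in BAP tumours and Cdh1 alone in BAP in Keap1-deleted tumours and in the interaction.

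Markers of other cells moved with these genes in the same comparison, and their part in the result was not tested. In that comparison 20.3% of all genes rose and 20.0% fell. Of the fibroblast markers 14 of 15 rose, and their summed level was 15070 to 50220 CPM in Keap1-deleted against 1202 to 2948 in Keap1-wildtype BAP tumours. All 12 macrophage markers rose (sums of 1817 to 3970 against 92.1 to 222 CPM), with the smallest p for Adgre1 (5.06 ± 0.81), Mrc1 (7.11 ± 1.19) and Ms4a7 (5.15 ± 0.91, log2 and SE). The smallest p among fibroblast markers were those of the growth factor receptor Pdgfra (6.01 ± 1.003), the proteoglycan Dcn (6.21 ± 1.09) and the microfibril gene Mfap5 (5.89 ± 1.05). Skeletal muscle markers rose in 11 of 12, led by Mylpf, Myh2 and Myl1 (3.94, 7.67 and 6.90), with sums of 24.9 to 1499 CPM against 13.8 to 94.6. Basal keratinocyte markers fell in 10 of 11, with the cell cycle inhibitor Sfn (-5.08 ± 0.87), the laminin chain Lamb3 (-4.70 ± 0.82) and the hemidesmosome integrin Itgb4 (-3.46 ± 0.62) in front. No marker of these lists was at 0 in all libraries of a group.

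Less changed in the remaining marker lists. Endothelial markers rose in 1 of 10 (Tek, 1.35 ± 0.43, log2 and SE; sums of 154.5 to 391 against 96.7 to 344 CPM). Nerve and Schwann markers rose in 4 and fell in 1 of 9, with sums of 167 to 255 against 42.8 to 73.6 CPM. The 3 with the smallest p were Pmp22 (4.52), Mbp (-1.70) and Ncam1 (3.57). Adipocyte markers split, with Fabp4 at -6.51 and Plin1 at 5.18 among 5 tested. Salivary gland markers had no edgeR call among 6 in any comparison, with 0 of 6 at an unadjusted p under 0.05 for Keap1 deletion in untreated tumours and 1 of 6 in each of the others. The smallest p for Keap1 deletion in untreated tumours were those of Krt8 (-2.26) and Bhlha15 (1.35). When the mean level of the fibroblast list was added to the edgeR model as a covariate, 0 of the 10 genes were called for Keap1 deletion in BAP tumours (1 of all 19202 genes, with 2947 at an unadjusted p under 0.05), and Cdh1 was at -3.18. With the basal keratinocyte list as the covariate, 0 of 10 and 0 of all genes were called, with 1038 at an unadjusted p under 0.05, and Cdh1 and Cdh2 were at 0.30 and -0.36. Neither score overlapped between the BAP groups. The fibroblast score was 8.34 to 10.11 (log2 CPM) with Keap1 deleted and 4.745 to 5.72 with Keap1 wildtype. The keratinocyte score was 2.94 to 6.47 and 9.38 to 10.37 in the same order. These fits therefore cannot separate the score from the group. Among libraries with titles not ending in R, the same 9 genes were called, with log2 fold changes of -5.46 for Cdh1, 4.58 for Cdh2 and 4.38 for Vim.

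Ratios within a library set the gain of one gene against the loss of another. The log2 ratio of Cdh2 to Cdh1 (0.5 CPM added to each) was -8.75 ± 0.84 (SD, n = 6) with Keap1 wildtype and BAP, against 0.91 ± 2.22 (SD, n = 5) with Keap1 deleted and BAP. The ratio was above 0 in 4 of the 5 deleted libraries, with replicate 5 at -2.05, and in none of the wildtype ones. Per gene length the order was closer: Cdh2 was above Cdh1 in replicates 1, 3 and 4 (8.64 against 7.60, 23.9 against 22.7 and 10.5 against 0.614 TPM, a level per length) and below it in replicates 2 and 5. Untreated tumours had -6.62 ± 4.24 (SD, n = 6) with Keap1 and -3.83 ± 3.27 (SD, n = 5) without it, and 1 library in each group was above 0. These were Keap1-wildtype untreated 6 at 1.90 and Keap1-deleted untreated 3 at 0.59. The log2 ratio of Vim to Epcam was 1.64 ± 2.02 in Keap1-wildtype BAP, 9.27 ± 1.503 in Keap1-deleted BAP, 3.17 ± 3.75 in Keap1-wildtype untreated and 4.95 ± 2.66 in Keap1-deleted untreated tumours (SD, same n). These are ratios of CPM, which do not allow for gene length, and no test was made of them.

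**Figure D3:**
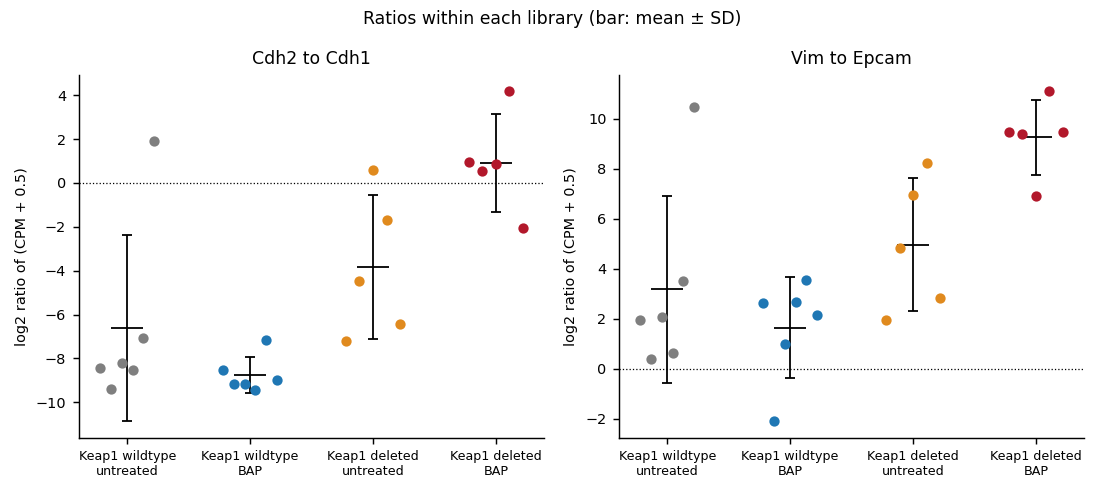
Log2 ratio of Cdh2 to Cdh1 and of Vim to Epcam in each library (0.5 CPM added to each value), with the mean and SD of each group. Keap1-deleted BAP tumours lie at a mean of 0.91 and 9.27, and Keap1-wildtype BAP tumours at -8.75 and 1.64.

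Keap1 deletion in untreated tumours gave no edgeR call among the 10 genes, against 0.292% of all genes (3 of the 10 were at an unadjusted p under 0.05). Of all genes tested, 0.214% rose and 0.0781% fell, or 41 against 15 genes, and 59 against 8 with library totals in place of TMM. Differences were 1.76 ± 0.68 for Zeb1, 1.39 ± 0.56 for Zeb2, 1.49 ± 0.71 for Twist2 and 0.81 ± 0.92 for Snai1 (log2, SE), with edgeR adjusted p of 0.190, 0.210, 0.276 and 0.660. Cdh1 differed by -0.55 ± 0.72, Vim by 0.29 ± 0.81 and Epcam by -0.03 ± 0.90. For none of the 10 genes were the groups apart, which held for 1.23% of all genes with the deleted group higher and 0.708% with it lower. The lack of edgeR calls rested in part on Keap1-wildtype untreated 6. Its Cdh1 of 13.9 CPM, Cdh2 of 53.2 and Zeb1 of 61.7 lay outside the rest of its group (318.9 to 435, 0 to 1.87 and 3.82 to 20.1 CPM). Without it 6 of the 10 genes were called, and so were 2731 of all 18984 genes tested, against 56 of 19202 with it. Snai1 rose by 2.58, Zeb1 by 2.76, Zeb2 by 2.39, Cdh2 by 4.45 and Vim by 2.38, and Snai2 fell by 0.94, with edgeR adjusted p from 0.00287 to 0.0387. Cdh1 and Epcam remained uncalled without it, at -0.81 and -0.28 (edgeR adjusted p = 0.397 and 0.847). So did Twist1 and Twist2, at 1.75 and 1.90 (edgeR adjusted p = 0.122 and 0.0838).

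The Keap1-deleted untreated tumours differed widely among themselves. Cdh1 was at 429, 163.8, 39.1, 61.2 and 398 CPM in replicates 1 to 5, and Vim at 558, 1150, 2503, 2322 and 458. Replicates 3 and 4 were low in Cdh1 and high in Vim, replicates 1 and 5 the reverse, and replicate 2 lay between on both. Cdh2 was at 2.39, 6.997, 59.1, 18.7 and 4.19 CPM, and Epcam at 145.5, 39.9, 19.9, 7.25 and 64.2. Zeb1 was at 12.3, 35.1, 150.8, 81.3 and 18.9, and Zeb2 at 20.3, 52.2, 70.0, 70.1 and 19.6. Thus replicate 3 also had the most Zeb1 and Cdh2, and replicate 1 the most Epcam.

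BAP in Keap1-wildtype tumours called none of the 10 genes and 0.00% of all genes in edgeR, with 6 of the 10 and 2622 of all genes at an unadjusted p under 0.05. Vim differed by -2.81 ± 0.82, Snai1 by -3.33 ± 0.97, Zeb2 by -1.92 ± 0.55 and Cdh2 by -3.70 ± 1.26 (log2, SE), and edgeR adjusted p were 0.149 or more. DESeq2 called 6 of the 10, all lower in BAP tumours, and 892 of all genes, of which 866 were lower and 26 higher, while limma-voom called 0. Leaving out Keap1-wildtype untreated 6 moved these edgeR differences to -0.72 for Vim, -1.56 for Snai1, -0.92 for Zeb2 and -0.18 for Cdh2. None of the 10 genes separated the groups, against 0.0833% of all genes higher and 0.203% lower in every BAP library. Epithelial Cdh1 and Epcam differed by 0.70 ± 0.69 and 0.69 ± 0.86.

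BAP in Keap1-deleted tumours called 1 of the 10 genes, Cdh1, which fell, against 6.10% of all genes (0.943% rose and 5.16% fell, or 181 against 991 genes, and 275 against 755 with library totals). Its fall was 3.65 on the log2 scale (SE 0.83, edgeR adjusted p = 0.0210), and the highest BAP library (27.6 CPM) lay below the lowest untreated one (39.1). Snai2 was also lower in every BAP library, which 3.54% of all genes were (2.4% were higher in every one), but was not called (-1.13 ± 0.38, edgeR adjusted p = 0.0838). Epcam differed by -3.09 ± 1.02 (edgeR adjusted p = 0.0775). Genes of the mesenchymal side were not called: Vim differed by 1.08 ± 0.85, Zeb2 by 0.72 ± 0.58, Cdh2 by 0.59 ± 1.22 and Twist1 by 0.39 ± 0.80. The Cdh1 call was lost without Keap1-deleted untreated 1 (edgeR adjusted p = 0.0601), untreated 5 (0.0587) or BAP 1 (0.0508), among titles not ending in R (-3.88, edgeR adjusted p = 0.125), and when only the groups compared were fitted (-3.62, edgeR adjusted p = 0.0583). Calls over all genes went from 1172 to 181 without untreated 1, 187 without untreated 5 and 394 without BAP 1. They were 11 among titles not ending in R and 352 when only the groups compared were fitted. The Cdh1 call held without Keap1-deleted BAP 2 (-3.82, edgeR adjusted p = 0.0325), with 869 of all genes called.

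The interaction sets the effect of Keap1 deletion with BAP against its effect without BAP, and a positive value means a higher one with BAP. It again called only Cdh1 of the 10 genes, against 6.94% of all genes (2.47% positive and 4.47% negative, or 475 against 858 genes). With library totals in place of TMM that balance turned, to 1102 positive against 670 negative, while Cdh1 was at -4.02 (edgeR adjusted p = 0.0304). Its value was -4.35 ± 1.06 (log2, SE, edgeR adjusted p = 0.0299). Vim (3.89 ± 1.18), Zeb2 (2.64 ± 0.80) and Snai1 (4.38 ± 1.37) had edgeR adjusted p of 0.0506, 0.0505 and 0.0557. Those 3 rested in part on Keap1-wildtype untreated 6, without which they were 1.79, 1.65 and 2.61, while Cdh1 was -4.09 (edgeR adjusted p = 0.0200). Leaving out Keap1-deleted untreated 1, 2 or 5 or Keap1-deleted BAP 1, 4 or 5 ended the Cdh1 call, with edgeR adjusted p from 0.05001 to 0.0701. Calls over all genes fell in the same fits, from 1333 to 1 in each fit without untreated 1, 2 or 5. They fell to 512, 2 and 349 without Keap1-deleted BAP 1, 4 and 5, so the loss was not particular to Cdh1. Without Keap1-deleted BAP 2 the Cdh1 call held (-4.51, edgeR adjusted p = 0.0333). Among titles not ending in R the call was lost as well (-5.21, edgeR adjusted p = 0.0975), and Snai1, Zeb2 and Vim were called in its place (680 of 20742 genes). That fit holds only 2 Keap1-wildtype untreated libraries, untreated 4 and untreated 6, so these 3 calls rest on untreated 6 as well. The comparisons share groups and are not separate evidence of one another.

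Levels of different genes were compared per length, as count over the deposited gene length, scaled to a common total per library (TPM). In Keap1-wildtype BAP tumours the medians ran from Cdh1 (241 TPM) through Vim (70.8), Snai2 (52.9), Epcam (35.8), Twist1 (8.80), Snai1 (3.35), Twist2 (1.48), Zeb1 (0.844) and Zeb2 (0.470) to Cdh2 (0.142). Cdh1 and Vim did not overlap, and the ranges of every further pair of neighbours did. Keap1-deleted BAP tumours had Vim first (2109 TPM), apart from Twist1 (222) and Snai1 (186), which overlapped each other and were apart from Snai2 (27.2). Zeb1 (26.4), Cdh1 (14.8), Zeb2 (12.4), Cdh2 (10.5), Epcam (6.10) and Twist2 (1.51) followed with overlapping ranges. Among the factors, Snai2 thus led in the Keap1-wildtype BAP group, and Twist1 and Snai1 in the Keap1-deleted BAP group. In untreated tumours Cdh1 led with Keap1 (186 TPM, overlapping Vim at 81.3) and Vim led without it (746, apart from Cdh1 at 110.2). The deposited length was 20203 bases for Zeb2 and 1621 for Snai1, and the levels per length depend on these lengths.

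Pairs of genes were compared across libraries by their deviations from group means, so that differences between group means do not enter. The libraries were divided at a gap in Cdh1, with 8 at or below 61.2 CPM and 14 at or above 163.8. Pairs of the 10 genes are therefore given no correlation over raw levels. Gaps among the lowest libraries were left out of that choice, and the one from 0.724 to 11.7 CPM was wider on the log scale. Keap1-wildtype untreated 6 and Keap1-deleted untreated 3 and 4 are in the low set (13.9, 39.1 and 61.2 CPM). The split thus also enters the deviations within both untreated groups. Of 45 pairs, 38 had an adjusted p under 0.05 by Pearson's r (21 positive, 17 negative) and 32 by Spearman's rho, by permutation within groups with 100000 resamples. Zeb2 and Vim were the closest (r = 0.94, adjusted permutation p = 0.00189; rho = 0.87, adjusted permutation p = 0.00349), and r was 0.88 without the 2 libraries farthest from the median and 0.95 among the 14 libraries with titles not ending in R. Those 14 hold only 2 Keap1-wildtype untreated libraries, untreated 4 and untreated 6, whose deviations are then equal and opposite. That check therefore cannot show whether a pair depends on untreated 6. Snai1 and Zeb2 followed (r = 0.92, adjusted permutation p = 0.00212; rho = 0.84, adjusted permutation p = 0.00742; r = 0.83 and 0.97 in the same checks). The strongest negative pair was Snai2 and Cdh2 (r = -0.86, adjusted permutation p = 0.00189; rho = -0.67, adjusted permutation p = 0.00870), at -0.62 and -0.91 in these checks.

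The epithelial pair Cdh1 and Epcam varied together (r = 0.77, adjusted permutation p = 0.00212; rho = 0.67, adjusted permutation p = 0.00742; 0.61 and 0.77 in the checks), and Cdh1 and Cdh2 in opposite directions (r = -0.63, adjusted permutation p = 0.0258; rho = -0.58, adjusted permutation p = 0.0278; -0.54 and -0.85). By group, in the order above, Cdh1 and Epcam had r of 0.91, 0.43, 0.87 and 0.86, and Cdh1 and Cdh2 -0.82, -0.92, -0.97 and 0.03. Zeb2 and Vim had 0.96, 0.79, 0.98 and -0.16 in that order, so r was negative in Keap1-deleted BAP tumours. Snai1 and Zeb2 had 0.97, -0.36, 0.96 and 0.56, with the negative value in Keap1-wildtype BAP tumours. Both of these pairs were closest in untreated tumours, and neither was positive in every group. Snai2 and Cdh2 were negative in every group (-0.93 to -0.48). Snai1 and Snai2 had r = -0.55 with an adjusted permutation p of 0.185 (rho = -0.26, adjusted permutation p = 0.288), at -0.07 without the 2 far libraries and -0.82 among titles not ending in R, so that relation was not shown within groups. Twist2 was loosest, with r of -0.01 to Cdh1 and -0.03 to Epcam. All 38 pairs kept their sign in both checks, but r was below 0.5 in size in 17 of them without the far libraries, so these rest in part on those libraries. The far libraries were picked on the first gene of each pair, in the order of the opening list. Group means were not taken again without them, so a kept sign does not show that a pair is free of those libraries.

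**Figure D4:**
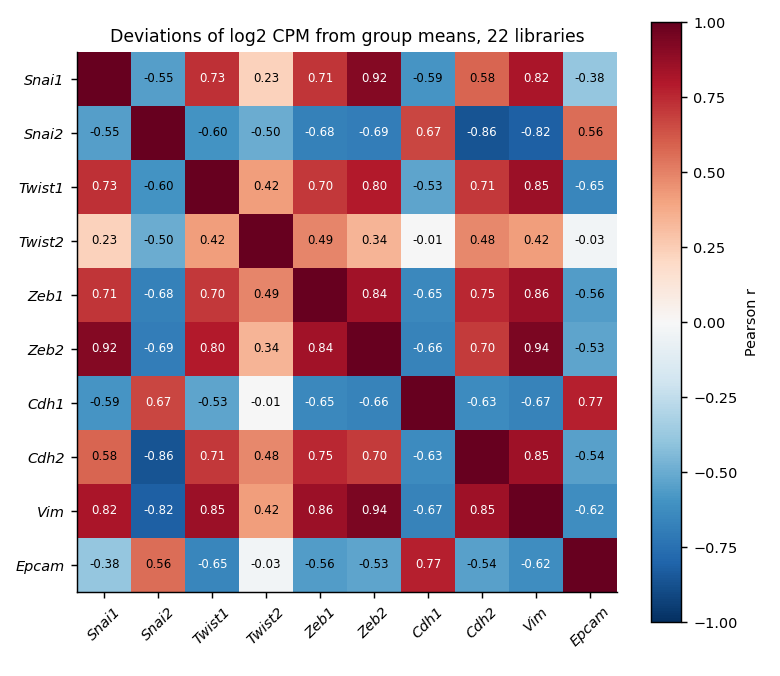
Pearson r between the genes over 22 libraries, on deviations of log2 CPM from the group mean (red positive, blue negative). Zeb2 and Vim reach 0.94, Snai2 is negative with Cdh2 (-0.86) and Vim (-0.82), and Twist2 has the palest row.

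Members also varied within groups with the cell type lists, of which 22 of 80 pairs had an adjusted permutation p under 0.05. Here the 2 far libraries were those farthest out on the list, and group means were again not retaken without them. Cdh1 went with basal keratinocyte markers (r = 0.95, rho = 0.87, both with an adjusted permutation p of 0.00480; r = 0.86 without the 2 far libraries). Twist1 went with fibroblast markers (r = 0.90, adjusted permutation p = 0.000800; rho = 0.85, adjusted permutation p = 0.00160; 0.85 without the far libraries). Zeb2 (r = 0.92, adjusted permutation p = 0.000800; rho = 0.87, adjusted permutation p = 0.00480; 0.82) and Vim (r = 0.91, adjusted permutation p = 0.00480; rho = 0.80, adjusted permutation p = 0.0120; 0.79) went with macrophage markers. Both also went with fibroblast markers, Vim at r = 0.87 (adjusted permutation p = 0.00133; rho = 0.87, adjusted permutation p = 0.00480; 0.87 without the far libraries) and Zeb2 at r = 0.86 (adjusted permutation p = 0.0102; rho = 0.80, adjusted permutation p = 0.0221; 0.78). Twist2 went with endothelial markers (r = 0.71, adjusted permutation p = 0.00791; rho = 0.70, adjusted permutation p = 0.0123; 0.62). The other pairs under 0.05 crossed lists. Snai1 (r = 0.80 and 0.81), Zeb1 (0.76 and 0.76) and Cdh2 (0.74 and 0.74) went with fibroblast and macrophage markers. Twist1 also went with macrophage markers (0.73). Endothelial markers went with Twist1 (0.57), Zeb1 (0.64), Zeb2 (0.57) and Vim (0.59). Basal keratinocyte markers went with Epcam (0.66) and against Zeb1 and Zeb2 (both -0.63), and fibroblast markers against Epcam (-0.54). Vim is expressed by macrophages and fibroblasts, and the RNA of tumour cells and of these cells is not separated in bulk tissue.

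The genes with the pattern most like each member were taken by Spearman's rho over the 22 libraries among 13437 genes with a mean of at least 1 CPM, as a description with no test, which includes the differences between groups and the split of the libraries on Cdh1. They were the axis inhibitor partner Aida, the immunophilin Fkbp1a and the signalling regulator Rgs10 for Snai1 (0.96 to 0.95). Snai2 was nearest to the Notch target Hes1 (0.92), Apoc1 (0.91) and the epithelial factor Grhl2 (0.91). The matrix genes Fbln2, Col6a1 and Col1a1 were nearest to Twist1 (0.97 to 0.96), and Tacr1 and Akap13 were near Twist2 (both 0.78). Rhoj, Loxl3 and Nbea were nearest to Zeb1 (0.96 to 0.95), and Gulp1, the lymphoid factor Ikzf1 and the mast cell receptor gene Milr1 to Zeb2 (0.96 to 0.94). Cdh1 was close to Mall (0.95) and the kallikrein Klk7 (0.94). Cdh2 was nearest to the laminin chain Lamc1 (0.95), Zcchc24 (0.95) and the mesenchymal factor Prrx1 (0.94). Vim was nearest to the complement receptor C3ar1 (0.96), the galectin Lgals1 (0.95) and Spry4 (0.95), and Epcam to Prss12, Pank1 and Tnk1 (0.88 to 0.87). The names depend on the measure. For Snai1, Twist2, Zeb1, Zeb2 and Cdh2, none of the nearest genes by rho was among the nearest by Pearson's r.

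Other genes of the programme were looked at beside the 10 in Keap1 deletion in BAP tumours. There 20.3% of all genes rose and 20.0% fell, and the median log2 fold change of all genes was 0.00. Of 16 other transcription factors of the transition, 9 rose and 1 fell (median 1.68), with the smallest p for Tcf4 (1.89 ± 0.30), Tead2 (3.76 ± 0.68) and Foxc2 (4.76 ± 0.87, log2 and SE). The one that fell was Snai3, the third SNAI gene (-5.39 ± 1.08, edgeR adjusted p = 0.000921). Snai3, and further down Cldn7, Cd44, Ctnnd1, Cdh11, Ctnnb1, Ctnna1 and the TGF-beta ligands, were chosen for naming after their values were seen. Of 14 epithelial regulators, which hold Cdh1 up or guard epithelial splicing, all 14 fell (median -4.88), led by Elf3 (-7.49 ± 1.19), Trp63 (-4.85 ± 0.77) and Grhl2 (-4.61 ± 0.81).

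Of 20 epithelial junction genes 19 fell (median -3.96), with the smallest p for F11r (-2.41 ± 0.40), Spint1 (-3.52 ± 0.62) and St14 (-4.32 ± 0.76). Cldn7, at -2.85, was the one not called (edgeR adjusted p = 0.144). Of 11 other cadherins and catenins tested, 4 fell and 1 rose, a share near the 40.3% of all genes called in either direction. R-cadherin (Cdh4, -6.13 ± 0.94), plakoglobin (Jup, -4.77 ± 0.80) and P-cadherin (Cdh3, -4.09 ± 0.68) fell, as did the catenin Ctnnd1 (-1.42), and the mesenchymal cadherin Cdh11 rose by 3.95 ± 0.83. The catenins that link cadherins to actin and Wnt signalling were not called, with Ctnnb1 at -0.15 ± 0.22 and Ctnna1 at -0.23 ± 0.18. Mesenchymal genes rose in 12 and fell in 1 of 18 (median 2.48), led by the collagen crosslinkers Lox (6.45 ± 1.08) and Loxl2 (3.72 ± 0.76) and the fibronectin receptor Itga5 (2.90 ± 0.61), while Cd44 fell by 0.95. Of 12 genes of TGF-beta signalling, an inducer of the transition, 5 rose and 0 fell (median 0.71), with Tgfbr1 (1.21 ± 0.24), Tgfbr3 (2.36 ± 0.51) and Smad4 (0.98 ± 0.24) in front. The 5 called are again near the 40.3% of all genes called in either direction, while 20.3% of all genes rose. The ligands Tgfb1, Tgfb2 and Tgfb3 were at 0.44, 0.30 and 1.39, not called.

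**Figure D5:**
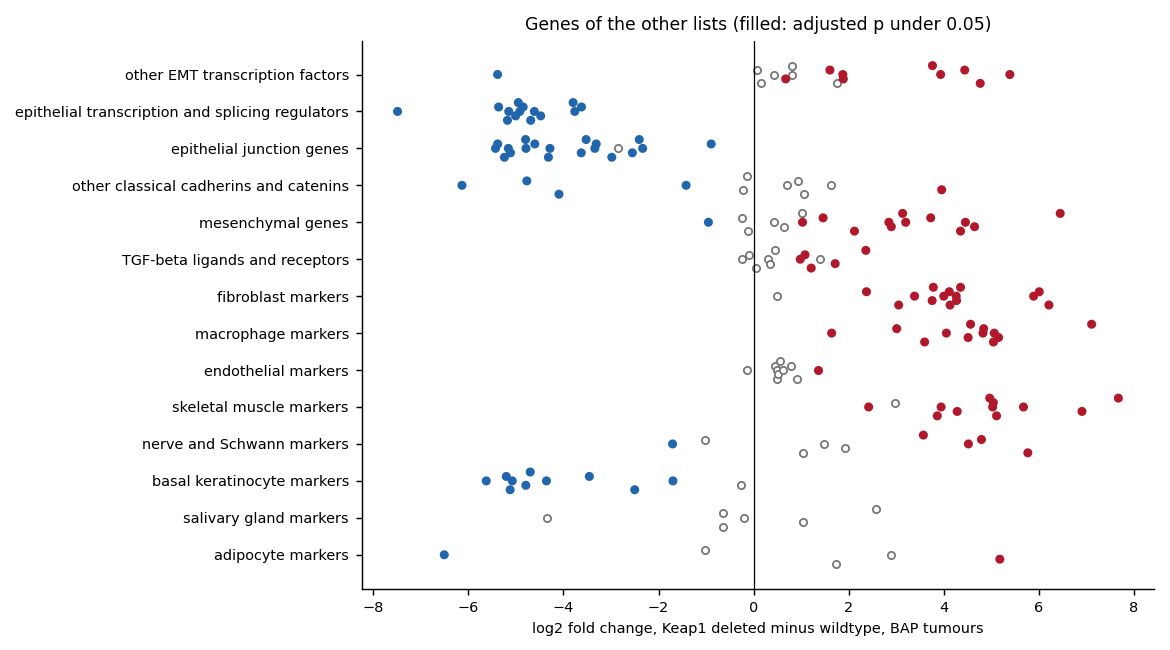
Log2 fold change of each tested gene of the other lists for Keap1 deletion in BAP tumours, filled where the adjusted p was under 0.05. Epithelial regulators (14 of 14), junction genes (19 of 20) and basal keratinocyte markers (10 of 11) fell, and fibroblast (14 of 15), macrophage (12 of 12) and skeletal muscle markers (11 of 12) rose. Of all genes tested, 20.3% rose and 20.0% fell.

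BAP in Keap1-deleted tumours lowered 12 of 14 epithelial regulators, 14 of 20 junction genes and 3 of 11 other cadherins and catenins (Cdh3, Cdh4 and Jup), and raised 0 of 18 mesenchymal genes. Of all genes, 5.16% fell and 0.943% rose in that comparison. Snai3 was called there too, at -5.57. Of the marker lists, 7 of 11 basal keratinocyte markers fell, 1 of 12 macrophage markers rose and 0 of 15 fibroblast markers were called. The interaction was negative and called for 9 epithelial regulators and 14 junction genes, and positive and called for 9 of 12 macrophage markers and 1 of 15 fibroblast markers. It was negative and called for 4.47% of all genes, and positive and called for 2.47%. Keap1 deletion in untreated tumours and BAP in Keap1-wildtype tumours gave no edgeR call in any of the 14 lists, with 0 to 7 and 0 to 14 genes per list at an unadjusted p under 0.05.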

How the data were processed

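Expected counts per gene, deposited per library with a gene length, were whole numbers in every library (tolerance 1e-09). For the aligner, counter, build, annotation and strand setting, the sources used here give nothing. RNA came from pulverised frozen tumours, per the labels. Symbols were matched by gene ID to GENCODE M21 (GRCm38) for 52073 of 56748 IDs, which hold 99.39% of counts. No pair of libraries was a duplicate (231 pairs, lowest chi-square per degree of freedom 96.5).

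Genes were filtered with filterByExpr (minimum count 10) and tested with edgeR 4.0.16 (TMM, robust quasi-likelihood F test, 1 term per group, all 22 libraries, R 4.3.3), with Benjamini-Hochberg adjustment over 19202 genes. DESeq2 1.42.0 and limma 3.58.1 were alternatives. CPM are TMM-scaled, and TPM is the expected count over the deposited length. Correlations used scipy 1.17.1, numpy 2.4.6 and pandas 2.3.3 (Python 3.11.15) on log2 CPM, permuted within groups. The fit was tested on simulated data. The 10 genes and the lists were chosen with earlier results of these data known. Named besides the 10 genes are, for each, the 3 genes of highest Spearman rho and, for each list, the 3 called genes of smallest p in the comparison with most calls, or the 2 of smallest p where none was called; some genes that this rule names are not reported here.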

Additional observations from a re-analysis of the deposited data

Results flagged for a closer look

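In 11 of 40 sets of 1 gene in 1 group, a library lay far from the rest of its group by Dixon's test at the 95% level. Chance gives this for about 1 in 20 sets if values are normally distributed, which was not checked for CPM. The sets share libraries and are not independent, so that rate is only a rough guide. Keap1-wildtype untreated 6 accounted for Snai1 at 110.4 CPM (others up to 26.2), Zeb1 at 61.7 (up to 20.1), Zeb2 at 61.7 (up to 21.7), Cdh2 at 53.2 (up to 1.87) and Vim at 5523 (up to 742). Its Cdh1 of 13.9 CPM was as far below the others (318.9 or more). Keap1-deleted BAP 3 had Twist2 at 10.7 CPM (others up to 1.56) and Epcam at 19.1 (up to 4.88). Cdh2 was also far out at 1.68 CPM in Keap1-wildtype BAP 5 and at 59.1 in Keap1-deleted untreated 3, and Epcam at 348.6 in Keap1-wildtype BAP 2.

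The effect of Keap1 deletion on Cdh1 differed between BAP and untreated tumours by the interaction term, at -4.35 on the log2 scale (edgeR adjusted p = 0.0299), a call that 6 of the libraries each ended when left out. In those fits the calls over all genes also fell, from 1333 to between 1 and 512.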

How the results depend on the processing

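For Keap1 deletion in BAP tumours, all 9 calls held in 21 of 23 alternatives and 0 genes were called in 2, when the mean level of fibroblast or of basal keratinocyte markers was a covariate (the scores named here). Neither score overlapped between the BAP groups, so those fits cannot separate the score from the group. Leaving out 1 library gave 9 to 9 genes called there, 0 to 6 for Keap1 deletion in untreated tumours, 0 to 0 for BAP in Keap1-wildtype, 0 to 3 for BAP in Keap1-deleted tumours and 0 to 4 for the interaction. Over all genes these fits called 6768 to 7536, 16 to 2731, 0 to 0, 181 to 1597 and 1 to 2309 in the same order. Counts over all genes stand in brackets. The interaction called 1 (1333), and 3 with DESeq2 size factors (1348), 4 with library totals (1772), 7 by DESeq2 (3008), 2 by limma-voom (1693), 0 with no low-count filter (111), 4 with at least 1 CPM in 5 libraries (1516), 4 with the title suffix as a covariate (3021), 3 among titles not ending in R (680), 0 with the fibroblast score (1) and 0 with the keratinocyte score (0, with 1212 at an unadjusted p under 0.05). BAP in Keap1-deleted tumours called 1 (1172), and 3 by DESeq2 (2112), 5 by limma-voom (3237), 0 among titles not ending in R (11) and 0 with the keratinocyte score (2). BAP in Keap1-wildtype tumours called 0 (0), and 6 by DESeq2 (892, of which 866 fell) and 3 among titles not ending in R (474, of which 458 fell). That last fit holds only 2 Keap1-wildtype untreated libraries, 1 of them untreated 6. Keap1 deletion in untreated tumours called 0 (56), and 4 by limma-voom (1888). Without Keap1-wildtype untreated 6 and Keap1-deleted BAP 2 together, a choice made after seeing the data, these were 6 (2530) for Keap1 deletion in untreated and 2 (1592) for BAP in Keap1-deleted tumours.

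Signs turned as follows (log2; the cause was not tested). Keap1 deletion in untreated tumours gave Epcam 0.0499 with library totals and 0.14 with the suffix as a covariate, and Snai1 -0.21, Cdh2 -0.30 and Vim -0.80 among titles not ending in R. With the fibroblast score Twist1 was -0.36, Cdh1 0.10, Cdh2 -0.0756, Vim -0.46 and Epcam 0.64, and with the keratinocyte score Cdh1 0.26 and Epcam 0.53. Keap1 deletion in BAP tumours gave Twist2 -0.30 by limma-voom, -0.94 among titles not ending in R, -0.72 with the fibroblast and -0.0668 with the keratinocyte score, and with the latter Cdh1 0.30 and Cdh2 -0.36. BAP in Keap1-wildtype tumours gave Twist2 -0.13 with library totals, Epcam -0.27 by limma-voom, Snai2 0.59 and Twist2 -0.71 among titles not ending in R, Cdh2 0.27 and Epcam -0.28 with the fibroblast score, and Cdh1 -0.0391 and Cdh2 0.0896 with the keratinocyte score. BAP in Keap1-deleted tumours gave Zeb1 -0.10 and Cdh2 -0.40 among titles not ending in R. With the keratinocyte score Snai1 was -0.88, Twist1 -0.61, Zeb1 -0.93, Zeb2 -0.55, Cdh2 -1.79 and Vim -0.79 there, and in the interaction Snai2 0.0212, Zeb1 -0.42, Cdh1 0.0339, Cdh2 -1.88 and Vim -0.24. Leaving out 1 library gave -0.78 to 0.32 for Epcam, -0.24 to 4.45 for Cdh2 and -0.0246 to 2.38 for Vim under Keap1 deletion in untreated tumours. It gave -0.37 to 0.0847 for Snai2, -0.11 to 0.50 for Twist2 and -0.51 to 1.04 for Epcam under BAP in Keap1-wildtype tumours, and -1.01 to 0.69 for Twist2 under Keap1 deletion in BAP tumours. Within groups, the correlations of Twist2 with Cdh1 (-0.00678) and with Epcam (-0.0308) turned sign against those over all libraries.

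Library totals alone in place of TMM moved the median of all genes by 0.45 (log2) and the share of calls that rose from 50.4% to 73.4% for Keap1 deletion in BAP tumours. No paired analysis was possible because replicate numbers follow the order of the samples and pair nothing.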
